A study of Homo sapiens with 16 samples.

Results

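The myeloid granule genes described here are 10 genes of the 25221 in the counts: ELANE, MPO, PRTN3, AZU1, CTSG, LYZ, CST7, SRGN, RNASE2 and CEBPB. They were picked by symbol, on their levels and their change by pair in MOLM13 cells given Ro, with K562 cells as the contrast. The MOLM13 values of the members, with their estimates and SEs, therefore describe the choice and test nothing. MOLM13 is a human acute myeloid leukemia line (FAB M5a) that carries the MLL-AF9 fusion, and K562 is a human BCR-ABL+ line derived from the blast crisis of a chronic myeloid leukemia. MOLM13 was used at passages 8 to 12 and K562 at passages 12 to 18, and each is a single established line grown in RPMI with serum. Cells of each line received Ro 08-2750 (Ro), a small molecule studied as an inhibitor of RNA binding by MUSASHI proteins, at 20 μM for 4 h, or DMSO, with 0.1% DMSO in the medium of every culture. The 16 libraries form 4 groups of 4, and the labels number a DMSO and a Ro library of each line as pairs 1 to 4. Nothing in the labels says whether the pairs are separate cultures, so the spread between them may be partly technical.

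The first granules made by neutrophil lineage cells, the azurophil granules, are filled while the cell is a promyelocyte. The genes of their enzymes are then transcribed at a high rate, and transcription falls as the cell matures. These granules hold serine proteases, myeloperoxidase and lysozyme packed on the proteoglycan serglycin. C/EBP factors, PU.1, MYB, RUNX1 and GFI1 are known regulators of these genes, and blasts of myeloid leukemias often keep part of the program. K562 cells have erythroid and megakaryocytic features.

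Library totals ran from 3143129 to 43571060 counts. Levels are given as CPM, here reads from the 3′ ends of mRNAs scaled to TMM library sizes, which do not grow with transcript length and were not divided by it. A gene needs 3 counts to stand clear of 0, which was 0.0859 to 0.433 CPM in the MOLM13 libraries and 0.067 to 0.872 CPM in those of K562, counting error only. The labelled lines were checked on markers. The red cell list summed to 2465 to 4081 CPM in K562 with DMSO and to 136 to 160.3 CPM in MOLM13 with DMSO, where GATA1 and KLF1 had at most 3 counts a library. The monocyte list summed to 368 to 436 CPM in MOLM13 with DMSO and to 125 to 217 CPM in K562, most of it from the receptor CSF1R (322 ± 16.9 and 132 ± 43.4 CPM with DMSO, SD, n = 4), while CD14 averaged 0.173 ± 0.126 and 0.119 ± 0.158 CPM and FCGR1A was listed at 0. Of its 14 genes 10 passed the count filter in MOLM13 and 6 in K562. A listed 0 is weak evidence of absence, since HEXA, a lysosomal enzyme of most cells, was also at 0 in every library, and HBE1 in all of K562. 1 gene listed without a symbol took 4.11% to 24.3% of the counts in MOLM13 libraries, most in pair 1 and least in pair 4.

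AZU1 (19:827837-832018), PRTN3 (19:840999-848175) and ELANE (19:852303-856243) lie next to each other in 35.8 kb of chromosome 19 that ends with CFD (19:859664-863641), and RefSeq on GRCh38.p14 lists no other gene there. CTSG lies at 14:24573518-24576250, RNASE2 at 14:20955487-20956436, MPO at 17:58269855-58280935, LYZ at 12:69348381-69354234, CST7 at 20:24949269-24959928, SRGN at 10:69087603-69104811 and CEBPB at 20:50190583-50192690. The 250 bases before the annotated start are shown for 4 members, since the factors that recognise such stretches were measured in the same libraries. They come from the RefSeq table of promoter windows on GRCh38.p14, which matched 5 of the 10 members. Capitals mark matches on either strand to the letters TTGCNNAA (C/EBP), GAGGAA (PU.1) and AACTG (MYB).
PRTN3, chr19:840749-840998, plus strand: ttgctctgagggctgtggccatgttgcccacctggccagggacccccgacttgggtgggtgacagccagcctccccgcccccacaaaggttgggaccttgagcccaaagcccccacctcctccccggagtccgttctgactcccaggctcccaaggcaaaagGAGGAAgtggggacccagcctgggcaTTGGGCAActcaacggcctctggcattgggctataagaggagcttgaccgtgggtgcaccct
AZU1, chr19:827587-827836, plus strand: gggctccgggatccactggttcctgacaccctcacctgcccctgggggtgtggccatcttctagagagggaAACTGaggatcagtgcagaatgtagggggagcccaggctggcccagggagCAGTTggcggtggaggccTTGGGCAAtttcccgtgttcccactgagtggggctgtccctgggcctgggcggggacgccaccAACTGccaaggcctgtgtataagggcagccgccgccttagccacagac
RNASE2, chr14:20955237-20955486, plus strand: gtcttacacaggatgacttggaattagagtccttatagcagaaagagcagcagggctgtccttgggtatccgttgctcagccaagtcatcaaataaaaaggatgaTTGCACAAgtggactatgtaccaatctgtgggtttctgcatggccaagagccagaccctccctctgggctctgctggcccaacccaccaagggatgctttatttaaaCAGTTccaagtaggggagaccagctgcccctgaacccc
CTSG, chr14:24576251-24576500, minus strand: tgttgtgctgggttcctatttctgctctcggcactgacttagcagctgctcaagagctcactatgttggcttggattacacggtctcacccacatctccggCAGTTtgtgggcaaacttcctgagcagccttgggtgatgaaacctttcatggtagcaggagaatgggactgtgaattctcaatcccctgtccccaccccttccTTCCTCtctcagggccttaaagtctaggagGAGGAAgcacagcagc

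The C/EBP letters occurred in the windows of PRTN3, AZU1 and RNASE2, starting 62, 111 and 145 bases before the annotated start. PRTN3 and AZU1 carry the same 8 letters there. Of 35116 windows of the same length in the table, 9.05% held these letters. The PU.1 letters were in PRTN3 and at 2 places in CTSG, against 23.6% of all windows. The MYB letters were at 3 places in AZU1 and at 1 each in CTSG and RNASE2, against 34.1% of all windows. No member window held the RUNX1 letters TGTGGT, which 11.0% of windows held, and the windows of CEBPB held none of the 4 motifs. These matches are letters only and carry no measurement of binding.

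The members fell into 3 tiers of level in MOLM13 with DMSO. SRGN was the highest at 866 ± 370 CPM (SD, n = 4), followed by CTSG at 441 ± 224, ELANE at 439.6 ± 178, PRTN3 at 366 ± 153, AZU1 at 230.5 ± 87.3 and RNASE2 at 164 ± 52.8. CST7 stood at 58.3 ± 18.4 CPM, below every RNASE2 library and above every LYZ library. LYZ (23.3 ± 7.72), CEBPB (21.9 ± 25.2) and MPO (21.8 ± 10.8) formed the lowest tier, although CEBPB in pair 4 reached into the range of CST7. Between all other neighbours in this order the ranges over the 4 libraries overlapped.

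**Figure D1:**
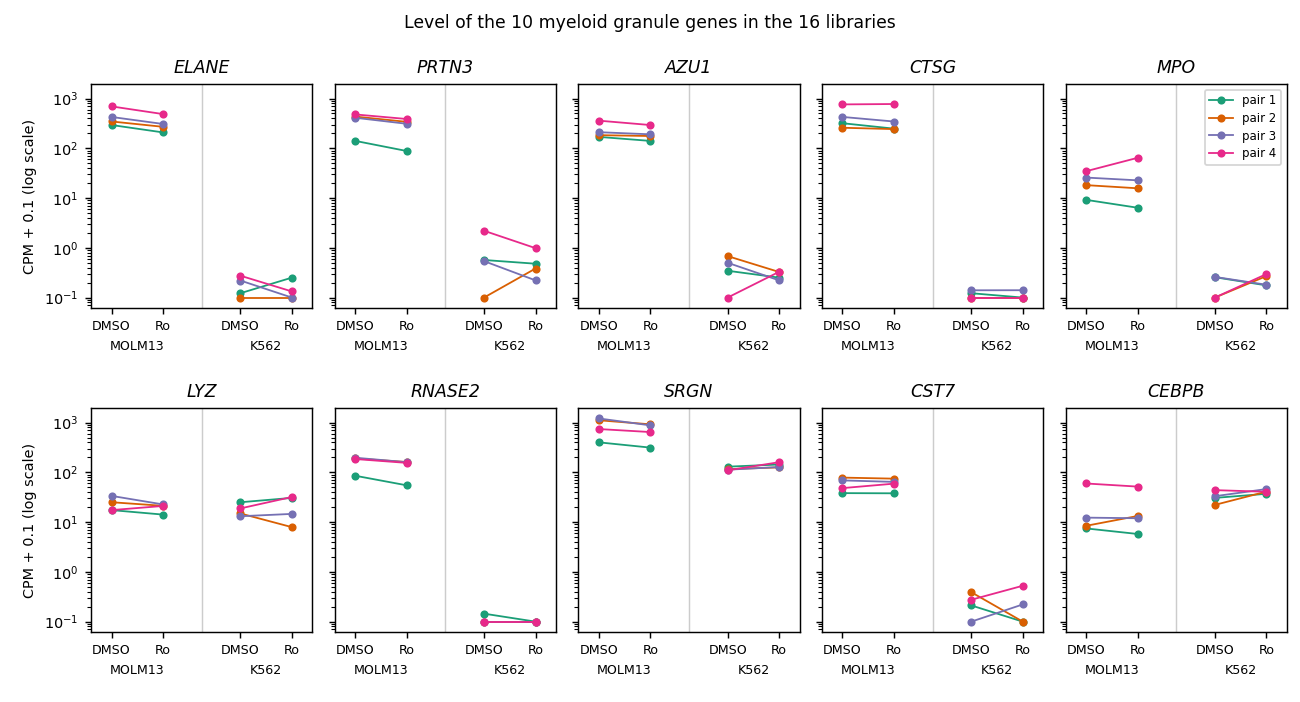
Level of each of the 10 members in the 16 libraries. The vertical axis is CPM + 0.1 on a log scale, points are libraries, and lines join the DMSO and Ro library of a pair, with pairs 1 to 4 in separate colours. In MOLM13 the spread between pairs is wider than the step from DMSO to Ro for most members, and 7 members lie near the floor in K562.

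The 4 serine proteases (or, for AZU1, the protease-like protein without catalytic activity) were the core of the set. ELANE, neutrophil elastase, stood at 293, 345, 426 and 694 CPM in the DMSO libraries of pairs 1 to 4 and at 208, 269.8, 308 and 486 CPM with Ro. Each Ro library was below its own DMSO partner, while the 2 groups overlapped because the pairs themselves differed 2.37-fold with DMSO. The change by pair was -0.49, -0.36, -0.47 and -0.51 on the log2 scale, the narrowest spread of the 10 members (SD 0.070). With pair as a block, the edgeR estimate was -0.44 ± 0.066 (SE), a level 26.4% lower with Ro, and without the block it was -0.45 ± 0.30.

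PRTN3, proteinase 3, had 141, 434, 410.3 and 478 CPM with DMSO and 88.0, 339.6, 310.5 and 387 CPM with Ro. Pair 1 was low in both treatments, and Ro was below DMSO in all 4 pairs, by -0.68, -0.35, -0.40 and -0.30 on the log2 scale. The blocked estimate was -0.41 ± 0.072, a level 24.7% lower. AZU1, azurocidin, an antimicrobial protein, had 169, 183, 210.4 and 359 CPM with DMSO and 140.5, 176, 191 and 293 CPM with Ro. Its changes by pair were smaller (-0.27, -0.06, -0.14 and -0.29), and the blocked estimate was -0.17 ± 0.070. CTSG, cathepsin G, had 319, 258, 426 and 761 CPM with DMSO and 248, 243, 345 and 775 CPM with Ro. It was lower in pairs 1 to 3 (-0.36, -0.09 and -0.31) and slightly higher in pair 4 (0.03), with a blocked estimate of -0.17 ± 0.073.

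The 3 neighbouring member genes of chromosome 19 were lower with Ro in every MOLM13 pair, as were 14.9% of all genes tested. ELANE and PRTN3 changed by more than AZU1. These 3 genes were chosen on these changes, so nothing is read from their shared direction. Their neighbour CFD, complement factor D, which is not a member, was also lower in all 4 pairs, by -0.22, -0.03, -0.18 and -0.07, and was not called (edgeR with the block, log2 change -0.11 ± 0.067, adjusted p = 0.412). CFD averaged 447 ± 71.2 CPM with DMSO and 411 ± 79.8 CPM with Ro.

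The other antimicrobial granule proteins moved less evenly. RNASE2, a ribonuclease of eosinophil and neutrophil granules, had 85.4, 190.1, 197 and 185 CPM with DMSO and 54.7, 161, 159.9 and 155 CPM with Ro. Pair 1 was low in both treatments, and all 4 pairs were lower with Ro (-0.64, -0.24, -0.30 and -0.26, blocked estimate -0.33 ± 0.076). Its paralog RNASE3 averaged 10.2 ± 4.46 CPM with DMSO and 10.4 ± 4.08 with Ro; how reads on similar copies were assigned is not given in the sources used here. MPO, the enzyme that makes hypochlorous acid, had 9.10, 18.1, 25.7 and 34.5 CPM with DMSO and 6.29, 15.6, 22.6 and 64.2 CPM with Ro. It was lower in pairs 1 to 3 (-0.53, -0.21 and -0.18) and higher in pair 4 (0.89), so its estimate of 0.15 ± 0.148 with the block averages opposite signs.

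LYZ, lysozyme, which cleaves bacterial cell walls, had 17.3, 25.0, 33.5 and 17.3 CPM with DMSO and 14.1, 21.1, 22.5 and 21.0 CPM with Ro. It likewise was lower in pairs 1 to 3 (-0.30, -0.24 and -0.57) and higher in pair 4 (0.28). CTSG, MPO, LYZ and CST7 were the 4 members whose only higher pair was pair 4. How many of all genes were higher only in pair 4 was not counted. That pair had the highest DMSO level of ELANE, AZU1, CTSG, MPO, PRTN3 and CEBPB, but not of LYZ, CST7, SRGN or RNASE2. It also had the smallest share of counts from the gene without a symbol (4.11% with DMSO and 6.29% with Ro). The part of that share in these values was not tested.

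SRGN, serglycin, the proteoglycan core that holds proteases in the granule, had 401, 1113, 1209.6 and 741 CPM with DMSO and 314, 922, 879 and 645 CPM with Ro. All 4 pairs were lower with Ro (-0.35, -0.27, -0.46 and -0.20), with a blocked estimate of -0.31 ± 0.066, a level 19.1% lower. CST7, cystatin F, an inhibitor of the cathepsins that activate granule proteases, had 38.1, 78.3, 68.8 and 48.1 CPM with DMSO and 37.8, 74.6, 64.2 and 59.2 CPM with Ro. Its 3 lower pairs changed little (-0.01, -0.07 and -0.10) and pair 4 was 0.30 higher.

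CEBPB, a C/EBP transcription factor of myeloid and stress responses and the single regulator among the members, split the pairs most widely by level. It had 7.37, 8.33, 12.2 and 59.6 CPM with DMSO and 5.68, 13.2, 11.9 and 51.6 CPM with Ro. Pair 4 was the high one in both treatments, and the change by pair ran from -0.37 in pair 1 to 0.66 in pair 2, with a blocked estimate of 0.04 ± 0.123.

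**Figure D2:**
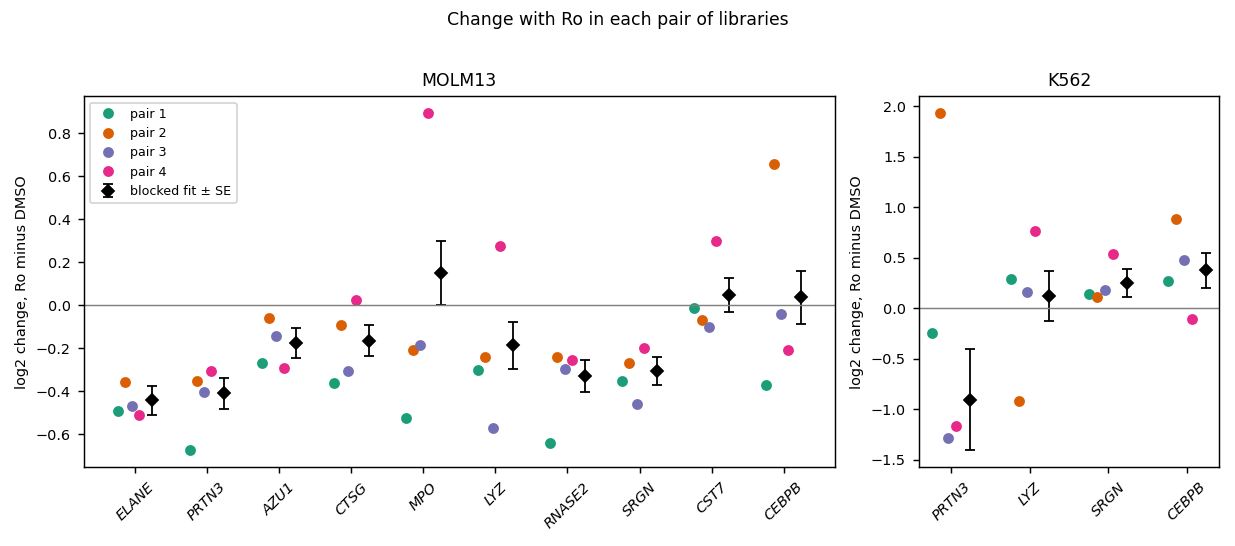
Log2 change, Ro minus DMSO, in each pair for the 10 members in MOLM13 and the 4 members that passed the count filter in K562 (the vertical scales differ). Coloured points are pairs, and black diamonds are the edgeR estimates with pair as a block, with bars of 1 SE. The points of ELANE, PRTN3, AZU1, RNASE2 and SRGN all lie below 0 in MOLM13, and those of SRGN all lie above 0 in K562.

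All 10 members passed the count filter in MOLM13 (10 counts or more in 4 or more of the 8 libraries of a line). ELANE, PRTN3, AZU1, SRGN and RNASE2, 5 of the 10, were lower in all 4 pairs, as were 14.9% of the 15031 genes tested, and 0 of the 10 were higher in all 4. The edgeR fit without the block called 0 of the 10 members, 0% of genes higher and 0% lower (adjusted p below 0.05), though before adjustment 126 genes had p below 0.05 in the higher direction and 49 in the lower, and DESeq2 called 1 gene higher. With pair as a block, the fit over all genes had 1.17% of them past the threshold on the lower side and 0.938% on the higher. ELANE, PRTN3, SRGN and RNASE2 were on the lower side, but the members were chosen on these very changes, so this is no test of them and nothing is read from the count. The median change over the 10 members was -0.18 with the block and -0.21 without it, and the median over all genes was 0.00 in both fits. For each of the 10 members the DMSO and the Ro libraries overlapped in range. How many of all genes overlapped in this way was not counted, so nothing is read from it.

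The members did not all follow each other across the 8 MOLM13 libraries. PRTN3 and RNASE2 had the most similar log2 CPM (Pearson r = 0.986 over 8 libraries), then ELANE with AZU1 (0.966) and AZU1 with CEBPB (0.966). At the other end were CTSG with CST7 (-0.082) and LYZ with CEBPB (0.026). PRTN3 and ELANE, direct neighbours on the chromosome, had r = 0.746. The 5 other genes most like ELANE over the same libraries were EXOSC10, a catalytic subunit of the RNA exosome, TRAPPC5, of a vesicle tethering complex, MESDC1, EIF2B1, a subunit of the exchange factor for translation initiation, and U2AF2, a splicing factor, with r of 0.99 to 2 decimals. These 8 points share pairs and depth, so the values are given as a description.

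In K562 most of the set was at the limit of detection. Over the 8 libraries together ELANE had 8 counts, MPO 23, AZU1 39, CTSG 3, CST7 23 and RNASE2 2, and none of these 6 passed the filter. Each K562 library held at most 3 counts of ELANE, 1 of CTSG and 2 of RNASE2, so no change with Ro was detectable at this depth. The highest K562 library had 0.175 CPM of ELANE, and the lowest MOLM13 library had 208 CPM. PRTN3 passed the filter in K562 with 84 counts in all, from 0 to 27 a library.

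3 members were well expressed in both lines. SRGN stood at 129.9, 116, 113 and 109.8 CPM in K562 with DMSO and at 144, 126, 128 and 159.7 CPM with Ro, so every Ro library was above its partner (0.14, 0.12, 0.18 and 0.54 on the log2 scale), and the groups overlapped. LYZ had 25.0, 14.8, 13.0 and 18.7 CPM with DMSO and 30.6, 7.82, 14.5 and 31.9 CPM with Ro. CEBPB had 30.6, 22.1, 33.0 and 43.8 CPM with DMSO and 36.9, 40.9, 46.1 and 40.6 CPM with Ro, higher in 3 of 4 pairs.

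None of the 4 members tested in K562 passed the threshold. K562 was the contrast when members were chosen with earlier results known, so their p-values here are no independent test. The log2 change with Ro was 0.25 ± 0.159 for SRGN, 0.34 ± 0.200 for CEBPB, 0.24 ± 0.385 for LYZ and -0.52 ± 0.712 for PRTN3, with adjusted p = 0.9998 for each. With pair as a block the estimates were 0.25 ± 0.140, 0.37 ± 0.176, 0.13 ± 0.247 and -0.90 ± 0.503 in the same order, and adjusted p was 0.947 to 0.954. Over all 15227 genes tested in K562 the fits with and without the block called 0% higher and 0% lower. Before adjustment 52 genes had p below 0.05 in the higher and 135 in the lower direction without the block, 129 and 193 with it, and DESeq2 with the block called 2 genes higher. K562 DMSO libraries 2 and 4 were the shallowest of the study, at 3143129 and 4383241 counts.

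SRGN was lower in every MOLM13 pair and higher in every K562 pair, although its K562 change did not pass the threshold. LYZ and CEBPB were each lower in 3 of 4 MOLM13 pairs and higher in 3 of 4 K562 pairs. With the block, however, CEBPB was at 0.04 ± 0.123 in MOLM13 and LYZ at 0.13 ± 0.247 in K562. How many of all genes had that pattern was not counted. Of the genes tested in K562, 6.84% were higher in all 4 pairs, as was 1 of the 4 members tested there. Of the 14320 tested in both lines 0.824% were lower in all 4 MOLM13 pairs and higher in all 4 K562 pairs. Members were chosen on their MOLM13 changes, so this joint share does not measure how unusual SRGN is. The difference between the lines was not tested.

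The 122 other genes of granules, their regulators and cell type markers were grouped into 9 lists, of which 121 are in the counts, 79 could be tested in MOLM13 and 72 in K562. Without the block none was called in either line. With the block, 6 of the 79 were called lower in MOLM13 and 0 higher, beside 1.17% and 0.938% of all genes, and 0 of the 72 were called in K562. 4 of the 6 are transcription factors, 1 belongs to granule traffic and 1 to the oxidase. The lists were chosen with earlier results of these data known, so the calls and their p-values are no independent test of the lists.

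The transcription factors of granule genes were the list with most calls, 4 lower and 0 higher of 11 tested, with a median log2 change of -0.17. MYB, which keeps progenitors cycling and drives promyelocyte genes, had 231, 339, 354 and 627 CPM with DMSO and 174, 269.8, 246 and 355 CPM with Ro, and fell by 0.51 on the log2 scale (SE 0.078, adjusted p = 8.2e-04, edgeR with the block, lower in 4 of 4 pairs). GFI1, a repressor needed for neutrophil differentiation, had 40.6, 57.2, 62.7 and 162 CPM with DMSO and 33.1, 42.0, 39.0 and 82.2 CPM with Ro, a log2 change of -0.62 ± 0.091 (adjusted p = 6.1e-04, 4 of 4 pairs). IRF8, which directs progenitors to the monocyte branch, had 101, 121, 168 and 169 CPM with DMSO and 54.9, 104, 100.1 and 104 CPM with Ro (-0.61 ± 0.087, adjusted p = 4.0e-04, 4 of 4 pairs). Of these, GFI1 is a repressor, and IRF8 is known for the monocyte branch more than for granule genes.

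CEBPA, the C/EBP factor required for granulocyte commitment, had 377, 535, 630.3 and 702 CPM with DMSO and 308, 466, 471 and 563 CPM with Ro, a log2 change of -0.29 ± 0.066 (adjusted p = 0.023, 4 of 4 pairs). GFI1, IRF8 and MYB were still called after leaving out any 1 pair, while CEBPA was not called without pair 1 or without pair 3. From pairs 1 and 2 alone no listed gene was called, and from pairs 3 and 4 alone GFI1, IRF8 and MYB were. The other 7 factors did not pass. CEBPD was at -0.36 ± 0.112 (adjusted p = 0.0997), CEBPG at -0.17 ± 0.076, SPI1, which encodes PU.1, at -0.11 ± 0.094, RUNX1 at 0.06 ± 0.069 and its partner CBFB at 0.00 ± 0.068. CEBPE, the factor of later granules, averaged 0.332 ± 0.254 CPM with DMSO, near the limit of detection.

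In K562 none of the 9 factors tested was called from all 4 pairs, with or without the block. MYB was called lower from pairs 1 and 3 alone. With the block, the common coefficient of variation between libraries was 0.206 in K562 and 0.081 in MOLM13, so equal changes are harder to call in K562. MYB averaged 159 ± 29.0 CPM with DMSO and 108 ± 28.7 CPM with Ro, lower in 4 of 4 pairs (-0.57 ± 0.151 with the block, unadjusted p = 0.00484, adjusted p = 0.947). CEBPA stood at 0.216 ± 0.149 CPM in K562 with DMSO, IRF8 at 0.96 ± 0.408 and GFI1 at 1.29 ± 0.933, and CEBPA did not pass the filter there.

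**Figure D3:**
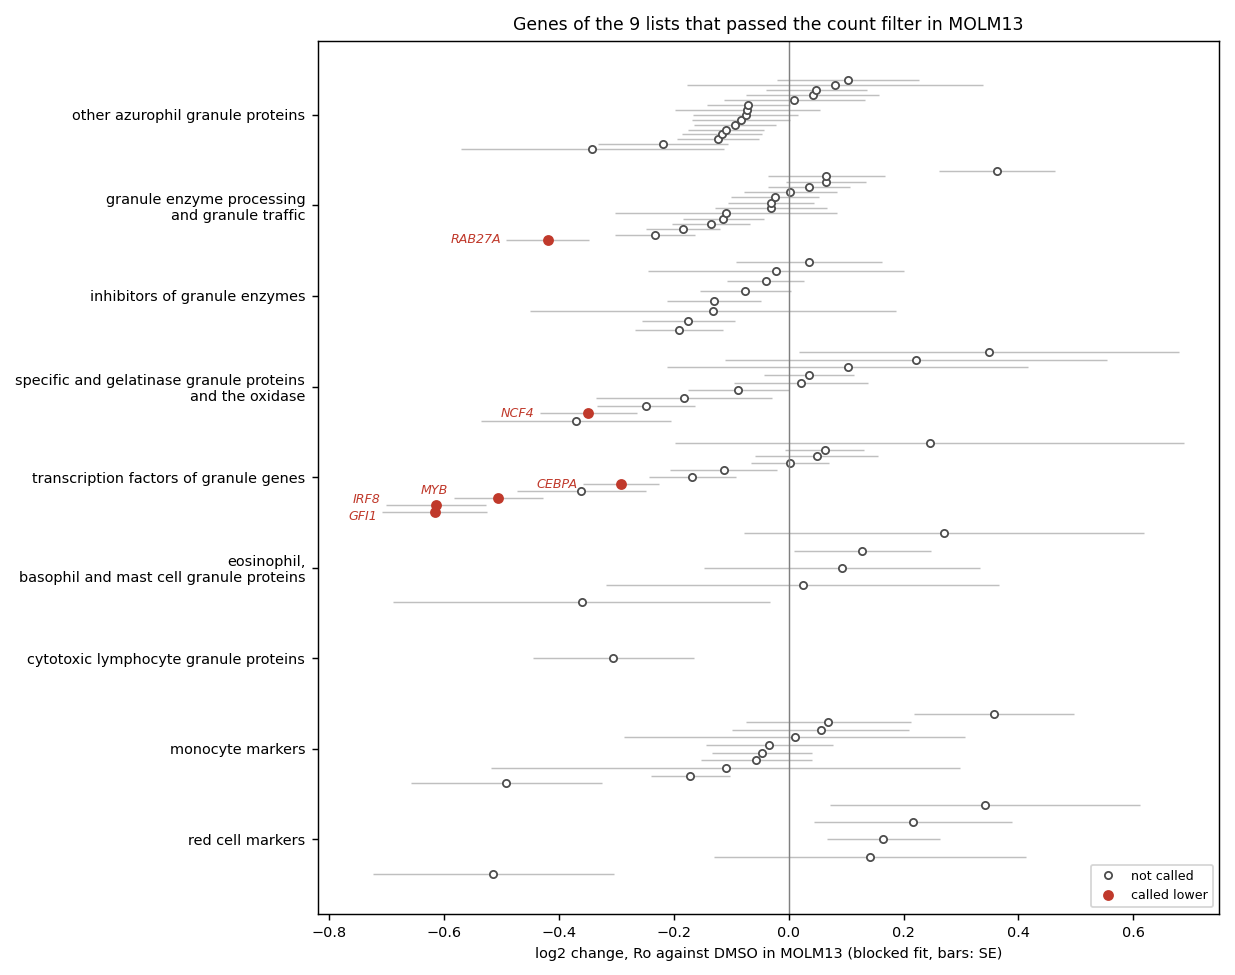
Log2 change with Ro in MOLM13 for the 79 listed genes that passed the count filter, from edgeR with pair as a block. Rows are the 9 lists, points are genes with bars of 1 SE, and filled points are the 6 genes called lower; the calls are MYB, GFI1, IRF8, CEBPA, RAB27A and NCF4.

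Of the genes for enzyme processing and granule traffic, 14 were tested, 1 was called lower and none higher. RAB27A, the small GTPase that docks granules for release, had 80.5, 115, 108 and 111 CPM with DMSO and 65.2, 86.3, 80.9 and 73.8 CPM with Ro, with no overlap between the groups except through the DMSO library of pair 1 (-0.42 ± 0.072, adjusted p = 0.0025, 4 of 4 pairs). It was not called without pair 3. CTSC, the peptidase that activates ELANE, PRTN3 and CTSG, was at -0.02 ± 0.077 and LYST, mutated in Chediak-Higashi syndrome, at -0.23 ± 0.070 (adjusted p = 0.0872). VPS45, a sorting protein, was at 0.36 ± 0.101 (adjusted p = 0.0617).

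No other azurophil granule protein was called, of 15 tested, with a median of -0.08 and levels that reached 370.2 ± 55.4 CPM for PRSS57, a further serine protease (-0.12 ± 0.069). The alpha-defensins DEFA1 and DEFA3 were listed at 0 in all 16 libraries. Among proteins of the later specific and gelatinase granules and of the oxidase, 10 were tested. NCF4, an oxidase subunit, was called lower (edgeR with the block, log2 change -0.35 ± 0.084, adjusted p = 0.032, 4 of 4 pairs). In MOLM13 it had 17.9, 36.7, 42.3 and 48.1 CPM with DMSO and 12.5, 30.2, 29.5 and 41.4 CPM with Ro. Its call was lost without pair 1, without pair 2 and without pair 3. LTF averaged 0.140 ± 0.0462 CPM with DMSO, LCN2 had at most 3 counts a library, and HP and CYBB were listed at 0 in MOLM13. The 8 inhibitors tested gave 0 calls and a median of -0.10, with SERPINB1, the elastase inhibitor of the cytosol, at -0.18 ± 0.081.

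The lists that mark other cells gave no calls in MOLM13 from all 4 pairs. With the block and without pair 4, the monocyte marker MS4A6A was called. Of the eosinophil, basophil and mast cell list 5 of 9 were tested and its sum was 12.1 to 22.5 CPM with DMSO and 10.4 to 26.6 with Ro. Of the cytotoxic lymphocyte list only NKG7 was tested, the sum was 5.21 to 11.0 CPM with DMSO and 5.15 to 9.80 with Ro, and GZMB had at most 3 counts a library. Of the monocyte markers 10 of 14 were tested, with sums of 368 to 436 CPM with DMSO and 332 to 384 with Ro. Of the red cell markers 5 of 13 were tested, with sums of 136 to 160.3 CPM with DMSO and 110.3 to 226 with Ro. In bulk RNA fewer cells of a kind and less RNA per cell cannot be told apart.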

How the data were processed

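Total RNA of MOLM13 and K562 cells was read with a QuantSeq 3′ kit with spike-in RNAs added. The authors mapped and quantified the reads in an in-house pipeline and deposited whole-number counts per gene by Entrez identifier and symbol, not normalized, with 0 spike-in rows and 1425 genes without a symbol. The submitters' processing notes name Trim Galore, STAR 2.5.3a, SAMtools 1.5 and hg38, with no roles. The counting program and annotation are not given in the sources used here. Of the identifiers, 25116 were found in RefSeq (GRCh38.p14), which gave coordinates and promoter windows. Library totals ran from 3143129 to 43571060 counts, and 3 counts were taken as the limit of detection (counting error only).

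Samples were grouped by the labels. Per line, the quasi-likelihood test of edgeR 4.0.16 (R 4.3.3, TMM factors) was run without a block where 4 or more of the 8 libraries had 10 or more counts of a gene. Genes with an adjusted p (Benjamini-Hochberg) below 0.05 were called. The SE given with an edgeR change was worked back from the test, as the size of the log2 change divided by the square root of its F statistic. The alternatives were the pair as a block, DESeq2 1.42.0, other size factors, no filter or a minimum of 50 counts, and leaving out libraries or pairs. The pair numbers come from the titles. Same-numbered libraries deviated together over genes (mean correlation 0.57, lowest 0.384, in MOLM13 and 0.281, lowest 0.110, in K562), so blocked values are given beside the results. CPM used TMM over all 16 libraries, and a prior count of 2 was added for changes by pair. The script was tested on simulated data with less spread between libraries than K562 had and larger changes than those given here. That test does not show that such changes would be found in K562. 24 pairs of libraries of 1 group all differed by more than counting noise. The interaction of line and treatment was not fitted.

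The members and the gene lists were chosen with earlier results of these data known. Besides the 10 members, listed genes are named with full values where they passed the adjusted threshold in either fit, with the neighbours of ELANE and the 5 genes most correlated with it. Other listed genes given with values were picked after their values were seen.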

Additional observations from a re-analysis of the deposited data

Results flagged for a closer look

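In 28 groups of 4 libraries, taken for each member in the lines where it passed the count filter, a single library lay far from the others in 4. Chance marks about 1 group in 20 when groups are independent. These groups share libraries and pairs, so the count is not compared with that rate. RNASE2 in MOLM13 was low in pair 1 with DMSO (85.4 CPM against 185 to 197, a gap of 0.895 of the group's range) and with Ro (54.7 CPM against 155 to 161, a gap of 0.942). CEBPB in MOLM13 was high in pair 4 with DMSO (59.6 CPM against 7.37 to 12.2, a gap of 0.907) and with Ro (51.6 CPM against 5.68 to 13.2, a gap of 0.837). In each case the DMSO and the Ro library of the same pair stood apart together. Pair 1 also had the largest share of counts from 1 gene listed without a symbol (22.3% with DMSO and 24.3% with Ro) and pair 4 the smallest (4.11% and 6.29%), and its part in these values was not tested.

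SRGN changed by a mean of -0.32 on the log2 scale over the 4 MOLM13 pairs and by 0.24 over the 4 K562 pairs, a difference of -0.57, with every pair of 1 line lower and every pair of the other higher. The MOLM13 side of this difference was part of the choice of members, with K562 as the contrast, and the difference was not tested.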

How the results depend on the processing

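By edgeR without a block no gene was called in MOLM13 or K562, and the block decided the calls in MOLM13. There, the replicate block gave 141 genes higher and 176 lower, and 6 listed genes lower. DESeq2 gave 1 gene higher without the block, and 64 higher, 196 lower and 7 listed genes lower with it. With the block, leaving out pairs 1, 2, 3 and 4 in turn gave 47, 72, 28 and 154 genes higher and 59, 117, 23 and 200 lower, with 4, 5, 3 and 9 listed genes lower and 1 higher without pair 4. CEBPD, MS4A6A, RAC2 and VPS45 were called without pair 4 but not from all 4 pairs. Pairs 1 and 2 alone gave 29 higher and 14 lower with no listed gene among them. Pairs 3 and 4 alone gave 11 higher, 18 lower and 3 listed genes lower. In K562 DESeq2 with the block gave 2 genes higher. Pairs 1 and 3 alone, blocked, gave 186 higher and 182 lower, with 3 listed genes higher and 3 lower, MYB among the lower. CEBPB was also higher there (0.38). The replicate block changed no other call. Other size factors and count filters were run only without the block and gave 0 calls, as did the main fit. Their effect on the blocked calls in MOLM13 was not tested. Fewer libraries in a fit leave fewer degrees of freedom, and otherwise the cause of these shifts was not tested.

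Of the members, the log2 change of LYZ in K562 turned negative in 3 of the fits that left out libraries (-0.014 and -0.042 without the block, where the range was -0.042 to 0.478, and -0.033 with the replicate block and without pair 4). In MOLM13 the unblocked change of ELANE ran from -0.72 without the Ro library of pair 4 to -0.15 without the DMSO library of pair 4, and the blocked one from -0.48 to -0.42. Leaving out 1 library also moved the unblocked changes of PRTN3 (-0.63 to -0.07), SRGN (-0.55 to -0.08) and RNASE2 (-0.51 to -0.05), lowest without the DMSO and highest without the Ro library of pair 1. The unblocked changes of AZU1 (-0.42 to 0.10), CTSG (-0.64 to 0.27), MPO (-0.54 to 0.63), CST7 (-0.13 to 0.20) and CEBPB (-1.09 to 1.14) changed sign with the library left out, as did the blocked changes of MPO (-0.32 to 0.42), CST7 (-0.05 to 0.12) and CEBPB (-0.16 to 0.30) with the pairs used.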
